A study of Mus musculus with 14 samples.

Results

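The genes described here are 9 genes that mark tissue macrophages: C1qa, C1qb, Csf1r, Trem2, Lgmn, Cd68, Mrc1, Tyrobp and Fcer1g. They were chosen by name, and every array probe set annotated to 1 of them alone was kept. This gave 14 probe sets of 9 genes, among 20380 single-gene probe sets of 12393 genes. The genes C1qb and Csf1r had 3 probe sets each, Trem2 had 2, and the other 6 genes had 1 each.

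RNA was taken from eyes of newborn mice (postnatal day 1) and measured on 14 single-colour Affymetrix arrays. The first experiment compared 4 samples with a lens-conditional knockout of Snf2h with 4 wildtype samples, all C57BL/6. The second compared 3 samples labelled Brg1_cKO with 3 wildtype samples, all on a mixed background. Snf2h, the product of Smarca5, and Brg1, the product of Smarca4, are the ATPases of chromatin remodelling complexes of the ISWI and SWI/SNF families. Conditional knockout is written cKO from here on. For Brg1 the labels name no deleted cell type, and the Cre driver of either knockout is not given in the sources used here. Whole eyes were used in the Snf2h experiment, and the Brg1 samples are labelled as eyeball. The series text names 4 biological replicate experiments, and no label says from which animals the Brg1 samples came, so p-values there measure the spread between samples, which may be technical.

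Tissue macrophages settle in the eye before birth. In the newborn eye they lie along the transient vessels around the lens, in the vascular coat and in the retina, where they are microglia, and they clear dying cells. C1qa and C1qb encode chains of C1q, the recognition molecule of the classical complement pathway, which macrophages and microglia make themselves. Csf1r is the receptor for colony stimulating factor 1 and interleukin 34, on which most tissue macrophages depend. Trem2 is a lipid-sensing receptor that signals through Tyrobp (DAP12), an adapter whose ITAM motif is phosphorylated and recruits the kinase Syk. Fcer1g is the adapter of the same design used by Fc receptors and several C-type lectins, in macrophages, neutrophils and mast cells alike. Mrc1 is the mannose receptor, Cd68 a glycoprotein of late endosomes and lysosomes, and Lgmn the lysosomal protease legumain.

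RefSeq promoter entries (build GRCm38.p6) were found for 6 of the 9 genes, and 3 of them are shown. C1qb and Fcer1g varied together across arrays (Pearson's r of 0.77 for deviations from group means), and Cd68 is a lysosomal member. Mrc1 also had an entry and gave 0.84 with Fcer1g, but is not shown, so co-variation alone did not pick the 3. C1qa, Csf1r and Tyrobp had no entry. Each line gives the 120 bases before the gene start on the coding strand, which is the minus strand in all 3. Capitals mark AGGAAG or its reverse complement CTTCCT, letters that hold the core bound by ETS-family factors such as PU.1, the product of Spi1.
C1qb, chr4:136886201-136886320: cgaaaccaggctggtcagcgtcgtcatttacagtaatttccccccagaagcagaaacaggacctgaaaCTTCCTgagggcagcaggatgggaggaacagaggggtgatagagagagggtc
Fcer1g, chr1:171234350-171234469: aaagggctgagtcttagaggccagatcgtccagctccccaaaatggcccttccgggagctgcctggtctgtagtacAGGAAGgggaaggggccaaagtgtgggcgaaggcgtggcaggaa
Cd68, chr11:69666171-69666290: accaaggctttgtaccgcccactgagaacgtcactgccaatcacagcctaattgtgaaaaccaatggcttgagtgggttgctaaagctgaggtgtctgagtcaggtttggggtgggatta
The marked letters began 52 bases before the start of C1qb and 44 bases before the start of Fcer1g. In the 250 bases before the start, on both strands, AGGAAG was found for 4 of the 6 genes (C1qb, Fcer1g, Mrc1 and Trem2), in 4 of their 7 promoter entries. It was found in 29.5% of all 32851 promoter entries. The longer form GAGGAAGT, which contains AGGAAG, was in 0 of the 7 and in 2.44% of all. The motif was chosen after these sequences had been read, and a match is a description of the letters only.

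Some arrays stood apart. Snf2h cKO replicates 1 and 2 were near-identical. Over the probe set with the highest mean level of each gene, their log2 levels differed with an SD of 0.205. The SD was 0.401 to 0.723 for the other pairs within a group. For the control transcript Gapdh, the log2 level of the 3' probe set minus that of the 5' one was 4.47 in C57BL/6 wildtype replicate 3, a sign of shorter RNA. The same array had a mean log2 level of 7.57 over a list of 8 cornified skin genes, against 3.99 to 4.82 in the other 3 arrays of its group. The Gapdh difference was 1.09 to 1.46 in the other 3 C57BL/6 wildtype arrays, 0.77 to 0.99 in the Snf2h cKO arrays and 0.63 to 0.96 in the Brg1 experiment. It separates the groups of the Snf2h experiment, and its part in the results below was not tested. Of the targeted genes, Smarca5 had 70.9% of its wildtype level in Snf2h cKO eyes by 1424205_at (log2 change −0.50 ± 0.16 SE, limma adjusted p = 0.188), while 1424206_at and 1424207_at of the same gene gave −0.19 ± 0.25 and 0.31 ± 0.25. By 1426805_at, Smarca4 had 59.8% of its wildtype level in Brg1 cKO eyes (−0.74 ± 0.30, adjusted p = 0.579), while 1426804_at of the same gene gave 0.05 ± 0.22. Eyes hold many cells outside the lens, and neither target passed the test. The labelled tissue was borne out by its markers: a list of 7 lens fibre genes had a mean log2 level of 11.48 to 12.66 in all arrays but 2 of the 3 Brg1 cKO arrays (9.27 and 9.96), and a list of 7 retina genes one of 9.08 to 10.62.

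All 9 genes were measured in every group, and the order of the groups differed from gene to gene. Levels are log2 of the deposited intensity, and the level of one probe set cannot be set against that of another. Strain, experiment and genotype of the controls cannot be told apart between the experiments, and these differences were not tested. The levels of Lgmn showed the widest gap between experiments. Its mean was 8.21 ± 0.02 (SD, n = 3) in Brg1 cKO, 7.71 ± 0.12 (n = 3) in mixed-background wildtype, 5.88 ± 0.21 (n = 4) in Snf2h cKO and 4.73 ± 0.62 (n = 4) in C57BL/6 wildtype eyes. The first 3 of these groups did not overlap with one another, and the last 2 did. Csf1r (1419872_at) ran in nearly the opposite order, with means of 10.82 ± 0.63 in C57BL/6 wildtype, 10.21 ± 0.42 in Snf2h cKO, 9.43 ± 0.54 in Brg1 cKO and 8.81 ± 0.06 in mixed-background wildtype. Neighbours in that order overlapped, except Brg1 cKO and its wildtype.

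For C1qb (1437726_x_at) the Snf2h cKO mean was 10.84 ± 0.48 and the C57BL/6 wildtype mean 10.67 ± 0.51, above the Brg1 cKO mean of 9.43 ± 0.62 and the mixed-background wildtype mean of 8.97 ± 0.49, and neighbouring groups overlapped. C1qa did not follow C1qb: its C57BL/6 wildtype mean of 4.63 ± 0.92 was the lowest, below 5.98 ± 0.44 in mixed-background wildtype, 6.04 ± 0.47 in Snf2h cKO and 6.33 ± 0.54 in Brg1 cKO eyes. Only the lowest group stood clear of its neighbour. For Tyrobp the mixed-background wildtype was lowest, at 7.10 ± 0.25, and did not overlap with its neighbour, C57BL/6 wildtype, at 8.14 ± 0.57. The means of Snf2h cKO (8.50 ± 0.50) and Brg1 cKO (8.63 ± 0.82) lay above and overlapped. For Cd68, Mrc1, Fcer1g and Trem2 (1421792_s_at) every pair of neighbouring groups overlapped. The Brg1 cKO mean was the highest of the 4 for C1qa, Lgmn, Cd68, Mrc1, Tyrobp and Fcer1g.

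**Figure D1:**
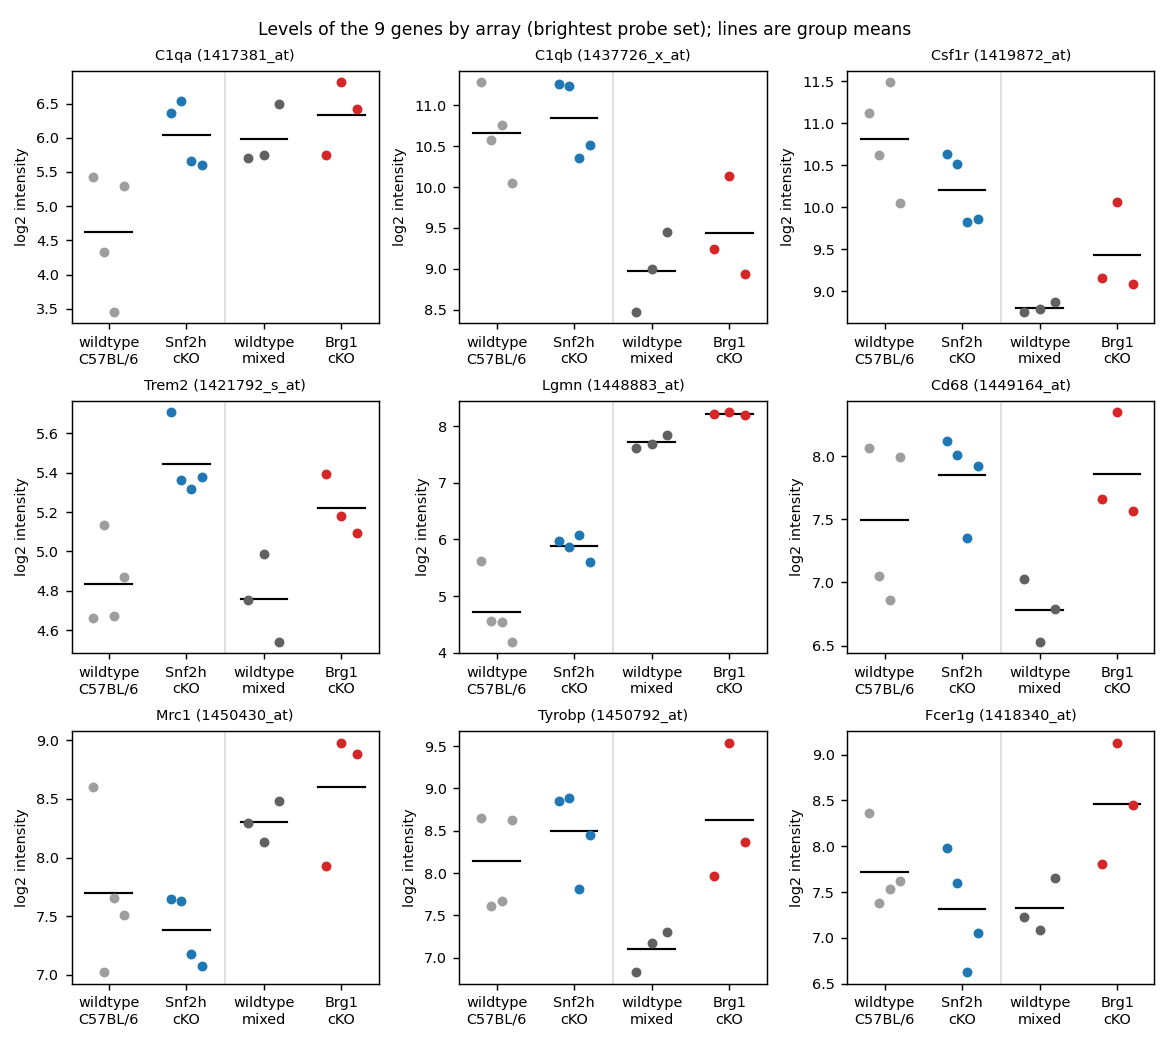
Log2 intensity of each of the 9 genes by array, for the probe set with the highest mean level; points are arrays, horizontal lines group means, and each panel has its own axis, so heights cannot be compared between panels. All 3 Brg1 cKO arrays lie above all 3 wildtype arrays of their experiment for Csf1r, Trem2, Lgmn, Cd68, Tyrobp and Fcer1g, while the Snf2h cKO arrays clear their wildtype for C1qa and Trem2.

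Eyes without Snf2h in the lens showed no shared direction among the macrophage genes. The mean level was above wildtype for 9 of 14 probe sets, beside 46.2% of all probe sets, and the median log2 change was 0.19, beside −0.03 over all. C1qa, Lgmn, C1qb 1417063_at and Trem2 1421792_s_at had the furthest means above wildtype. The 5 means below it were those of Mrc1, Fcer1g, Csf1r 1419872_at and 1419873_s_at, and Trem2 1421226_at. By limma with Benjamini-Hochberg adjustment over all 20380 probe sets, 0 of the 14 were called at an adjusted p under 0.05, as were 0% of all. At an unadjusted p under 0.05 there were 3, all above wildtype, beside 10.1% of all probe sets above and 7.58% below (17.7% together). In 2 of the 14 all knockout arrays lay above all wildtype arrays, which held for 6.52% of all, and 0 lay wholly below, beside 4.17%. In a whole eye, fewer cells of a type and less RNA per cell cannot be told apart.

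C1qa levels were 5.43, 4.32, 3.46 and 5.30 in the C57BL/6 wildtype arrays and 6.35, 6.53, 5.66 and 5.60 in the Snf2h cKO arrays. The groups did not overlap, and the lowest value came from the wildtype array with the high Gapdh difference. The log2 change was 1.41 ± 0.42 (SE; 2.66-fold, 95% interval 0.46 to 2.36), with a limma adjusted p of 0.169. It was 1.02 without that wildtype array (adjusted p = 0.238) and 1.28 with the near-identical knockout arrays averaged (adjusted p = 0.351).

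The other chain, C1qb, is read by 3 probe sets that did not give the same size. For 1417063_at, wildtype levels were 7.93, 6.85, 6.60 and 6.55 and knockout levels 8.25, 8.22, 6.90 and 7.36, a change of 0.70 ± 0.38 (adjusted p = 0.365). The 2 near-identical knockout arrays were above all wildtype arrays and the other 2 lay among them. The brighter 1437726_x_at gave 11.28, 10.58, 10.75 and 10.05 in wildtype and 11.26, 11.24, 10.35 and 10.51 in knockout eyes, a change of 0.18 ± 0.30. The remaining 1434366_x_at differed by 0.05 ± 0.34. The suffix x marks probes that can also match other sequences. The remaining C1q chain, C1qc, is in the list of complement genes and was named after its values had been seen. Its single probe set differed by 0.58 ± 0.26 (adjusted p = 0.279), with levels of 6.82 to 7.72 in wildtype and 7.27 to 8.12 in knockout eyes, which overlap.

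Csf1r had the furthest means below wildtype. For 1419872_at, wildtype levels were 11.12, 10.62, 11.49 and 10.04 and knockout levels 10.63, 10.51, 9.83 and 9.86. The knockout arrays were tighter and lay in the lower part of the wildtype range or below it. The change was −0.61 ± 0.32 (adjusted p = 0.344), and 1419873_s_at gave −0.50 ± 0.32 (adjusted p = 0.431). The dimmer 1423593_a_at, whose suffix marks probes common to transcript variants, went from a mean of 5.67 to 5.88, a change of 0.21 ± 0.23. Trem2 was split as well. Its probe set 1421792_s_at gave 4.66, 5.14, 4.67 and 4.87 in wildtype and 5.71, 5.36, 5.32 and 5.38 in knockout eyes. These groups did not overlap, and the change was 0.61 ± 0.16 (adjusted p = 0.136; 0.57 with the near-identical arrays averaged, adjusted p = 0.309). The suffix s marks probes shared with transcripts of other genes. The dimmer 1421226_at differed by −0.31 ± 0.29, and 1 wildtype array, at 4.53, lay well above its group's other 3, at 3.04 to 3.42.

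**Figure D2:**
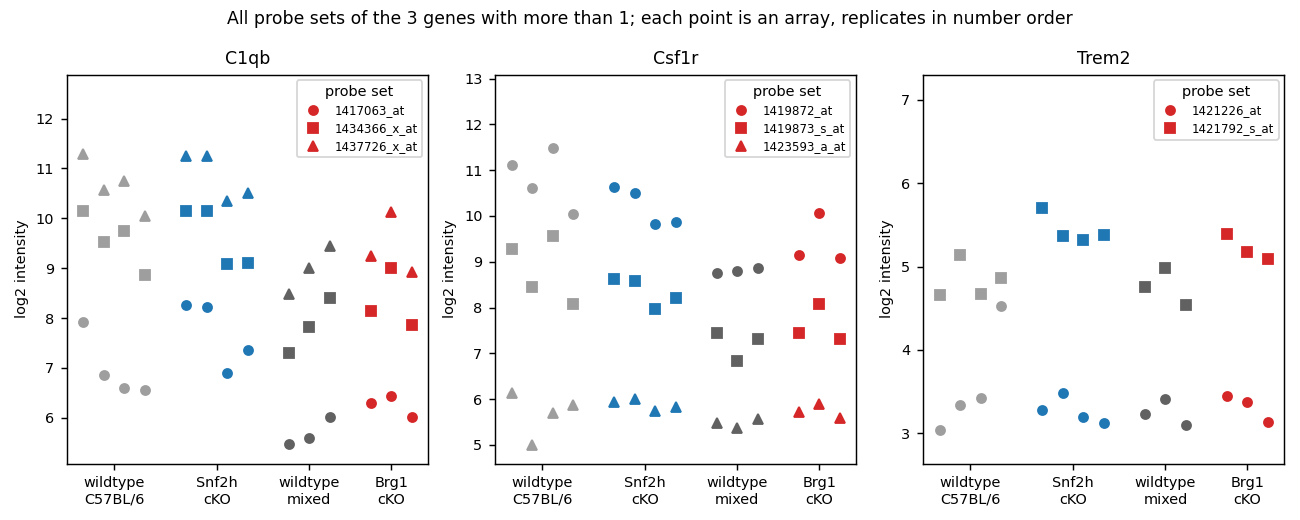
Log2 intensity of all probe sets of C1qb, Csf1r and Trem2 by array, with marker shapes for probe sets, colours for groups and replicates in number order within a group. The 3 C1qb probe sets follow one another from array to array, whereas Csf1r 1423593_a_at and both Trem2 probe sets do not follow the brightest probe set of their gene closely.

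Lgmn levels were 5.62, 4.56, 4.54 and 4.19 in wildtype and 5.98, 5.87, 6.08 and 5.60 in Snf2h cKO eyes. Wildtype replicate 1 reached the lowest knockout array and the other 3 lay below all of them. The change was 1.16 ± 0.28 (2.23-fold, 95% interval 0.53 to 1.78, adjusted p = 0.118). Without wildtype replicate 1 it was 1.45 and was called, with an adjusted p of 0.0113, and with array weights both Lgmn (1.05, adjusted p = 0.0499) and C1qa (1.58, adjusted p = 0.0436) were called. With the near-identical arrays averaged Lgmn gave 1.14 (adjusted p = 0.289). Cd68, the other lysosomal gene, had levels of 8.07, 7.05, 6.86 and 7.99 in wildtype and 8.12, 8.01, 7.35 and 7.92 in knockout eyes, a change of 0.36 ± 0.30 (adjusted p = 0.552).

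For the adapters and the mannose receptor the wildtype and Snf2h cKO groups overlapped, in part for the adapters, where 2 knockout arrays lay above all wildtype arrays for Tyrobp and 2 below them for Fcer1g. Tyrobp ran at 8.65, 7.61, 7.67 and 8.62 against 8.85, 8.89, 7.81 and 8.45, a change of 0.36 ± 0.32 (adjusted p = 0.569). Fcer1g ran at 8.36, 7.38, 7.53 and 7.62 against 7.98, 7.60, 6.62 and 7.05, a change of −0.41 ± 0.31 (adjusted p = 0.509). Mrc1 ran at 8.60, 7.02, 7.66 and 7.51 against 7.65, 7.63, 7.18 and 7.08, a change of −0.31 ± 0.31 (adjusted p = 0.608). In these 3 genes wildtype replicate 1 or knockout replicates 1 and 2 held the upper values. The median change over the 14 probe sets depended on single arrays: it was 0.37 without wildtype replicate 1 and 0.09 without wildtype replicate 2. Without wildtype replicate 1, 4 probe sets had all knockout arrays above all wildtype arrays, beside 8.62% of all probe sets (6.52% with all arrays). Without wildtype replicate 4 there were 2, beside 12.6% of all, and 5 had an unadjusted p under 0.05. The share of all probe sets at that p was not counted without single arrays.

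Eyes of Brg1 cKO mice had higher mean levels of each of the 9 genes than their wildtype. All 14 probe sets had a mean above wildtype, beside 49.1% of all probe sets, and the median log2 change was 0.48, beside −0.01 over all. The adapters Tyrobp and Fcer1g and the lysosomal Cd68 had the furthest means, at 2.88, 2.20 and 2.11 times wildtype. By limma 0 of the 14 were called, beside 0.623% of all 20380 probe sets (0.363% above and 0.26% below wildtype). At an unadjusted p under 0.05 there were 6, all above wildtype, beside 4.44% of all above and 3.68% below (8.13% together). In 8 of the 14, from 7 genes, all 3 knockout arrays lay above all 3 wildtype arrays, which held for 7.23% of all, and 0 lay wholly below, beside 6.2%. The probe sets share arrays and come from 9 genes, so they are not independent of one another. The median was 0.25 without Brg1 cKO replicate 2, which had the highest level of its group for 8 of the 9 genes.

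Tyrobp levels were 6.83, 7.18 and 7.30 in mixed-background wildtype and 7.97, 9.54 and 8.37 in Brg1 cKO eyes. The groups stood apart, with knockout replicate 2 more than a log2 unit above the other knockout arrays. The change was 1.53 ± 0.39 (2.88-fold, 95% interval 0.61 to 2.44, adjusted p = 0.241), and 1.07 without replicate 2 (adjusted p = 0.150). Fcer1g levels were 7.23, 7.09 and 7.65 against 7.80, 9.13 and 8.45. The groups did not overlap, though the lowest knockout array was close to the highest wildtype array. The change was 1.14 ± 0.34 (2.20-fold, 0.34 to 1.94, adjusted p = 0.359), and 0.80 without replicate 2 (adjusted p = 0.465).

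Cd68 levels were 7.03, 6.53 and 6.79 in wildtype and 7.66, 8.35 and 7.57 in Brg1 cKO eyes. Every knockout array was above every wildtype array, and the change was 1.08 ± 0.26 (2.11-fold, 0.48 to 1.68, adjusted p = 0.199). Lgmn levels were 7.62, 7.68 and 7.84 against 8.21, 8.24 and 8.19. Both groups were tight and did not overlap, with a change of 0.50 ± 0.16 (1.42-fold, 0.14 to 0.87, adjusted p = 0.383).

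Mean changes of the receptors were smaller than those of Tyrobp, Fcer1g and Cd68. Csf1r 1419872_at gave 8.76, 8.80 and 8.87 in wildtype and 9.16, 10.06 and 9.09 in Brg1 cKO eyes, which do not overlap, with replicate 2 far above the other 2. The change was 0.63 ± 0.27 (adjusted p = 0.624), and 0.32 without replicate 2. For 1419873_s_at the change was 0.41 ± 0.27 (adjusted p = 0.773), with overlapping groups. For 1423593_a_at it was 0.27 ± 0.17 (adjusted p = 0.766), and the lowest knockout array (5.58) was just above the highest wildtype array (5.57). Trem2 1421792_s_at gave 4.75, 4.99 and 4.54 against 5.39, 5.18 and 5.09. Here the knockout arrays were all higher and replicate 1, not 2, was the highest, with a change of 0.46 ± 0.19 (adjusted p = 0.582). The dim 1421226_at differed by 0.07 ± 0.18. Mrc1 gave 8.30, 8.14 and 8.48 against 7.93, 8.98 and 8.89. Knockout replicate 1 was below all wildtype arrays and the other 2 above them, and the change was 0.29 ± 0.30 (adjusted p = 0.853).

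For the C1q chains most groups overlapped. C1qa levels of 5.70, 5.75 and 6.49 in wildtype and 5.75, 6.81 and 6.42 in Brg1 cKO eyes overlapped, with a change of 0.35 ± 0.33 (adjusted p = 0.847). C1qb 1417063_at gave 5.48, 5.59 and 6.01 against 6.29, 6.43 and 6.02, a change of 0.55 ± 0.21 (adjusted p = 0.532). Its groups were parted by the values 6.01 and 6.02 only. C1qb 1437726_x_at gave 8.47 to 9.45 in the 3 wildtype arrays against 9.24, 10.13 and 8.93, a change of 0.46 ± 0.37 (adjusted p = 0.812), and 1434366_x_at gave 0.49 ± 0.37 (adjusted p = 0.804). Both overlapped. C1qc levels of 6.59, 6.40 and 7.26 against 6.94, 7.10 and 7.41 gave 0.40 ± 0.26 (adjusted p = 0.780).

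**Figure D3:**
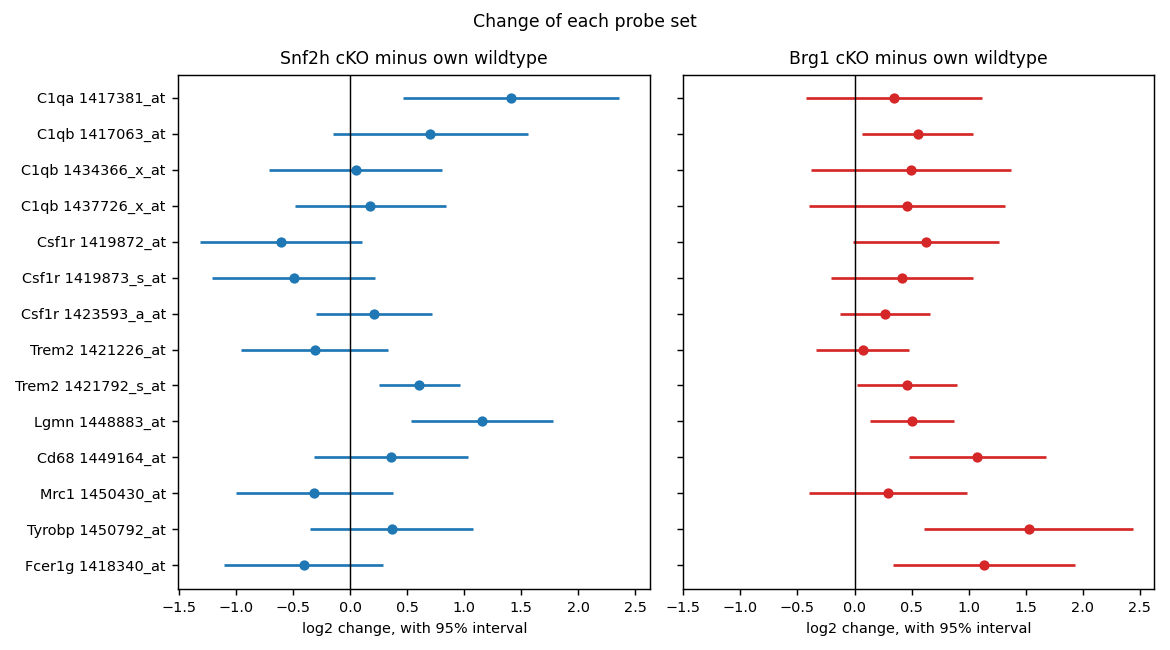
Log2 change of each of the 14 probe sets with its 95% interval from limma, Snf2h cKO minus C57BL/6 wildtype on the left and Brg1 cKO minus mixed-background wildtype on the right. All 14 Brg1 changes are above 0 and 9 of the 14 Snf2h changes are; the interval excludes 0 for 6 and 3 of them.

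An interaction contrast over all 14 arrays compared the change in 1 knockout with that in the other. Of the 14 probe sets, 0 were called, beside 0.687% of all (0.545% with the higher change in the Brg1 experiment and 0.142% with the lower), and 3 had an unadjusted p under 0.05, all with the higher Brg1 change. Over all probe sets 6.07% did so and 6.48% the opposite (12.6% together). In 10 of the 14 the Brg1 change was the higher, beside 52.6% of all. Those 3 were Fcer1g, Csf1r 1419872_at and Tyrobp. The Brg1 change minus the Snf2h change was 1.55 ± 0.50 for Fcer1g (95% interval 0.48 to 2.62, limma adjusted p = 0.213). It was 1.24 ± 0.47 for Csf1r 1419872_at (0.24 to 2.23, adjusted p = 0.286) and 1.16 ± 0.54 for Tyrobp (0.01 to 2.32, adjusted p = 0.394). The furthest differences the other way were those of C1qa and Lgmn, at −1.06 ± 0.61 (−2.37 to 0.25, adjusted p = 0.493) and −0.65 ± 0.36 (−1.43 to 0.13, adjusted p = 0.477). The experiments differ in strain and may differ in handling, which cannot be told apart from the deleted gene.

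Within groups some of the genes varied together from array to array and others did not. Each array was set against its own group mean, and Pearson's r was taken over the 14 arrays, which share array-wide factors and include the near-identical Snf2h cKO pair. Tyrobp and Fcer1g gave r = 0.85, Mrc1 and Fcer1g 0.84, Cd68 and Tyrobp 0.84, C1qb and Csf1r 0.82, and C1qa and Tyrobp 0.81. C1qa and C1qb, which lie near one another on chromosome 4, gave 0.43. Values were lower for Csf1r with Tyrobp (0.36), Cd68 (0.11) and C1qa (0.02), and for Lgmn with C1qa (0.35), Cd68 (0.21) and Tyrobp (0.17). Trem2 gave negative values with all 8 others, from −0.53 with Mrc1 to −0.08 with Cd68. Agreement between probe sets of 1 gene sets a frame for these values: 0.81, 0.82 and 0.99 for C1qb, 0.92 for the brighter 2 of Csf1r, 0.31 and 0.44 with the dim one, and 0.26 for Trem2. Averaged over the 9 genes, C57BL/6 wildtype replicate 1 was 0.56 above its group mean and had the group's highest level for 7 genes. Mixed-background wildtype replicate 3 was highest for 7 and Brg1 cKO replicate 2 for 8. Against their own wildtype the averages were 0.37, 1.19 and 0.58 in the Brg1 cKO arrays and 0.65, 0.55, −0.06 and 0.08 in the Snf2h cKO arrays. The averages above 0.5 in the Snf2h experiment thus came from the near-identical pair.

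**Figure D4:**
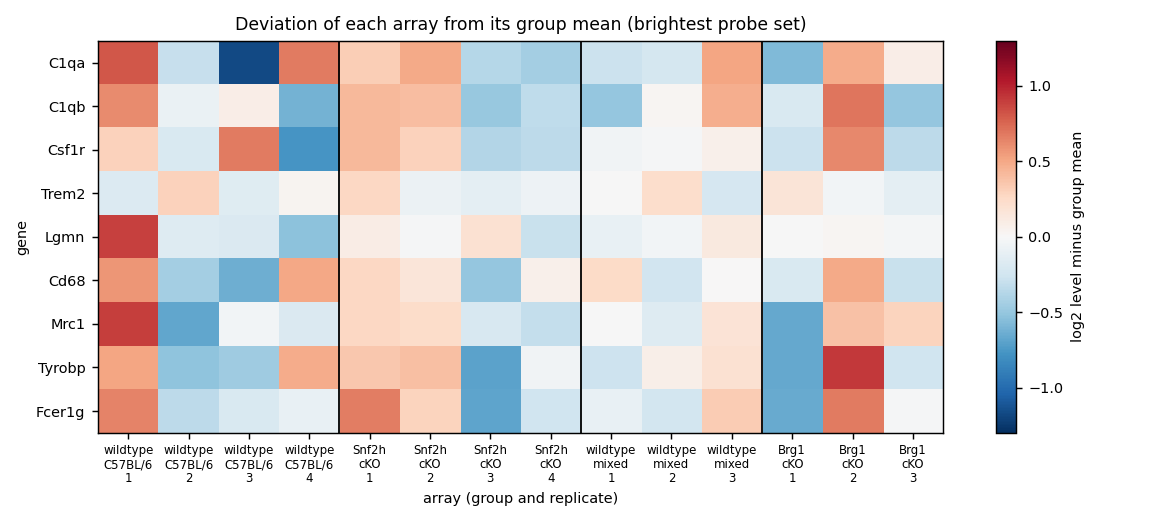
Deviation of each array from its group mean, in log2 units, for the brightest probe set of each of the 9 genes; red is above and blue below the mean. Columns such as wildtype C57BL/6 replicate 1 and Brg1 cKO replicate 2 are red for nearly all genes, and the Trem2 row does not follow the others.

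The 5 other genes whose deviations were most like the mean of the 9 were Fcgrt (r = 0.94), Tnnt2 (0.93), Cd248 (0.93), Cd52 (0.92) and Clec5a (0.92), over 14 arrays. Fcgrt encodes the neonatal Fc receptor, Tnnt2 cardiac troponin T, Cd248 a glycoprotein of pericytes and fibroblasts, Cd52 a leukocyte surface peptide, and Clec5a a Tyrobp-coupled receptor. Cd52 was at 4.16, 4.04 and 4.80 in mixed-background wildtype and at 7.15, 8.45 and 7.29 in Brg1 cKO eyes. It rose by 3.30 ± 0.38 there (adjusted p = 0.0160). The Brg1 changes of the other 4 were between −0.01 and 1.37, with none called.

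Genes around the members were read from lists of their pathways and of cell types. In the Snf2h experiment 0 genes were called in any of the 17 lists by limma. Without wildtype replicate 1 the complement, scavenger and lymphocyte lists each had 1 gene called lower. Without wildtype replicate 4 the scavenger list had 1 called higher and 1 lower. Calls over all probe sets rose without these arrays as well, with counts given at the end. At an unadjusted p under 0.05 the counts varied from list to list. Over all probe sets 10.1% were above and 7.58% below wildtype at that threshold. A gene was counted if any of its probe sets passed, so genes with several had more chances. The microglia list had 0 genes above and 2 below wildtype, with 0 of its 9 probe sets positive and a median change of −0.30. The mast cell list had 0 above and 3 below, the lysosome list 4 above and 1 below, the complement list 2 and 2, and the retina list 6 above and 0 below. The ITAM list holds receptors and signalling genes around the ITAM pathway. Some pair with Tyrobp or Fcer1g, while others are inhibitory, such as Fcgr2b, Pirb, Inpp5d and Ptpn6. In Brg1 cKO eyes 3 of its 17 measured genes rose and 0 fell. For this list and those below, calls over all probe sets were 0.363% above and 0.26% below wildtype. Clec4e (Mincle), which pairs with Fcer1g, was at 2.01, 2.27 and 2.40 in wildtype and 5.94, 7.55 and 6.45 in knockout eyes by 1420330_at. It rose (log2 change 4.41 ± 0.39, adjusted p = 0.00593), but its wildtype level was at the bottom of the scale, so no fold is given. Its other probe set gave 1.56 (adjusted p = 0.212). Fcgr1, the high-affinity IgG receptor, was at 5.42, 6.05 and 5.35 against 7.77, 8.91 and 8.31, and rose by 2.72 ± 0.33 (adjusted p = 0.0183). Clec4n (Dectin-2) rose by 3.12 ± 0.42 and 2.93 ± 0.43 in its 2 probe sets (adjusted p = 0.0288 and 0.0370). Both were dim in wildtype, at 2.64 to 3.03 and 3.56 to 4.12. The list's median change was 1.18, against 0.48 for the 9 genes, whose own adapters serve some of these receptors.

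In the complement list 1 of 16 measured genes rose in Brg1 cKO eyes and 0 fell, with a median change of 0.40. It was C3ar1, the receptor for the C3a fragment, by 2.17 ± 0.31 in 1419482_at (adjusted p = 0.0335), with 0.63 in its other probe set. Among 16 scavenger and clearance genes, Itgb2, the beta chain of the leukocyte integrins, rose by 2.64 ± 0.26 (adjusted p = 0.00939) and Msr1, a scavenger receptor, by 1.59 ± 0.25 in 1 probe set (adjusted p = 0.0457), with 0 that fell and a median of 0.37. Itgb2 was dim in wildtype, at 3.26, 2.50 and 2.96. Among 18 lysosomal genes 0 were called, with a median of 0.41 (0.17 without Brg1 cKO replicate 2). The brightest 2, Cst3 and Npc2, had changes of 0.13 ± 0.17 and 0.10 ± 0.24. At an unadjusted p under 0.05, 5 of the 18 were above wildtype and 0 below, beside 4.44% and 3.68% of all probe sets. In the list of Csf1 ligands, Csf receptors and macrophage transcription factors 0 of 9 genes were called and the median was 0.07 (−0.08 without Brg1 cKO replicate 2). Its brightest genes, Csf2ra and Cebpa, gave 0.01 ± 0.62 and 0.23 ± 0.35, and 4 genes lay above and 1 below wildtype at an unadjusted p under 0.05.

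Lists for kinds of macrophage are given side by side for the Brg1 experiment, and no test compared them. Among 11 general macrophage and leukocyte genes, Cd14, the lipopolysaccharide co-receptor, rose by 5.80 ± 0.52 (adjusted p = 0.00684) and Mpeg1 (perforin-2), by 2.43 ± 0.27 (adjusted p = 0.0144), with 0 that fell and a median of 0.77. Mpeg1 was at 4.91, 4.80 and 5.50 in wildtype and 7.30, 7.91 and 7.28 in knockout eyes. Of 8 microglia markers 0 were called, with a median of 0.07 (0.36 without mixed-background wildtype replicate 3), and the brightest, Olfml3 and Tmem119, gave 0.03 ± 0.35 and 0.35 ± 0.40. Of 9 perivascular macrophage markers 0 were called, with a median of −0.19. That median was 0.11 without Brg1 cKO replicate 1 and −0.45 without Brg1 cKO replicate 2. The brightest of the list, Pf4 and Stab1, gave −0.08 ± 0.33 and 0.24 ± 0.31. Over all probe sets 4.44% were above and 3.68% below wildtype at an unadjusted p under 0.05. At that threshold the microglia list had 2 genes above and 2 below wildtype, and the perivascular list had 0 above and 1 below. That 1 was Cbr2, named after its values were seen, at 7.98, 7.69 and 7.66 in wildtype and 4.34, 6.14 and 4.62 in knockout eyes (−2.74 ± 0.44, adjusted p = 0.0549).

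Markers of other cells that use the same adapters stood beside these values. Of 14 measured neutrophil genes 2 rose and 0 fell in Brg1 cKO eyes, with a median change of 1.01 (0.39 without Brg1 cKO replicate 2 and 1.52 without wildtype replicate 3). They were S100a8 (5.01 ± 0.54, adjusted p = 0.0138) and S100a9 (4.48 ± 0.41, adjusted p = 0.00730), subunits of calprotectin. The summed intensity of the list was 399.5 to 758 in wildtype and 4324 to 14109 in knockout eyes. Such a sum is carried by the brightest genes and is not the change of a typical gene of the list. The list's mean log2 level was 5.16, 6.97 and 5.48 in Brg1 cKO replicates 1, 2 and 3, the same array being highest as for the 9 genes. The granule genes Elane and Mpo were near the bottom of the scale in both groups, with changes of −0.02 ± 0.20 and −0.01 ± 0.21. Arrays without detection calls give no level of 0. Of 6 monocyte genes 1 rose, F10, by 1.70 ± 0.22 in 1 probe set (adjusted p = 0.0268), with a list median of 0.35 (0.13 without Brg1 cKO replicate 2), and of 8 mast cell genes 0 were called, with a median of −0.19. The part of neutrophils, monocytes and mast cells in the levels of Fcer1g, Tyrobp and Cd68 was not tested.

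The remaining lists mark lymphoid, dendritic and tissue cells. Of 7 dendritic cell and 8 lymphocyte genes 0 were called in Brg1 cKO eyes, with medians of 0.13 and −0.04. Of 7 lens fibre genes 0 were called with a median of −2.05. All 7 were below wildtype at an unadjusted p under 0.05, beside 3.68% of all probe sets. Without Brg1 cKO replicate 2, 6 of them were called lower, with a median of −2.65. Of 7 retina genes and 8 cornified skin genes 0 were called, with medians of 0.10 (−0.09 without Brg1 cKO replicate 1) and −0.15. Of 6 surface epithelium genes 1 fell, the corneal keratin Krt12, by 4.10 ± 0.29 in 1419230_at (adjusted p = 0.00214). The lens fibre list thus differed between the same groups. A smaller share of lens RNA in the knockout eyes and more RNA of macrophages cannot be told apart from whole-eye values. Within the Brg1 cKO group, replicate 2 had the highest average of the 9 genes, 1.19 above wildtype. Its mean lens fibre level was also the highest, at 11.48, against 9.96 and 9.27 in replicates 1 and 3. How the lists go together within a group was not tested. In the Snf2h experiment the retina list had a median of 0.54 and the lens fibre list one of −0.22. The cornified skin list had one of −1.24, which was −0.20 without C57BL/6 wildtype replicate 3. The list calls depended on single arrays, and so did calls over all probe sets. In the Brg1 experiment calls over all were fewest without mixed-background wildtype replicate 1 and most without Brg1 cKO replicate 2, with counts given at the end. The list calls below moved alongside these totals and are no trait of the lists alone. Without mixed-background wildtype replicate 1 the ITAM, complement, general macrophage, monocyte and neutrophil lists had 0 calls, and the scavenger list 1. The complement list also had 0 without wildtype replicate 2 or 3 or Brg1 cKO replicate 3, and 2 without Brg1 cKO replicate 2. The scavenger list had 0 without wildtype replicate 3 and 1 without wildtype replicate 2 or Brg1 cKO replicate 3. The monocyte list had 0 without any single wildtype array or Brg1 cKO replicate 3. The general macrophage list had 1 without wildtype replicate 2 or Brg1 cKO replicate 3, and 4 without Brg1 cKO replicate 1. The neutrophil list had 1 without wildtype replicate 2 or 3, and 3 without Brg1 cKO replicate 1 or 2. Without wildtype replicate 2 or 3 or Brg1 cKO replicate 3 the ITAM list had 1, and without Brg1 cKO replicate 1 or 2 it had 5. Calls below wildtype moved too. The list of Csf1 ligands and receptors had 1 without Brg1 cKO replicate 1, and the perivascular list 1 without Brg1 cKO replicate 2. The surface epithelium list had 2 without Brg1 cKO replicate 2 or 3.

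**Figure D5:**
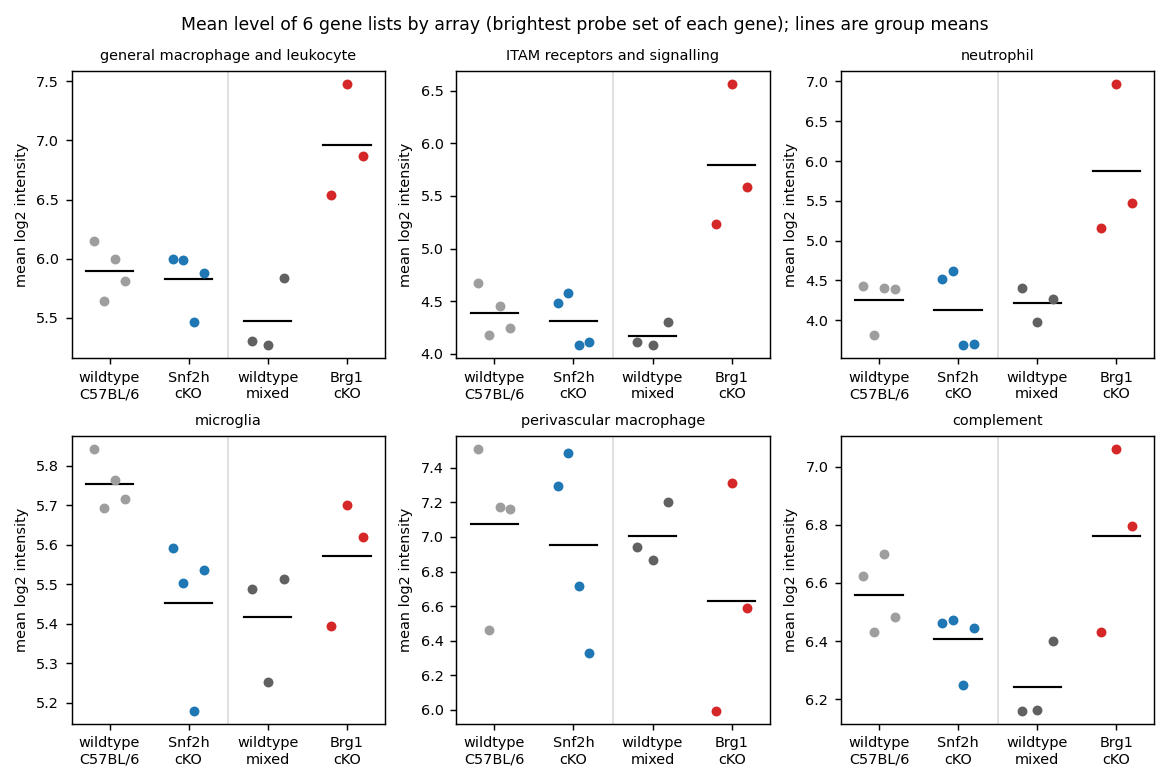
Mean log2 intensity of 6 gene lists by array, over the brightest probe set of each measured gene; points are arrays and lines group means. All 3 Brg1 cKO arrays lie above their wildtype arrays in the general macrophage, ITAM and neutrophil panels and also in the complement panel, while the microglia and perivascular macrophage panels overlap.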

How the data were processed

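The authors deposited 1 linear intensity per probe set for each of 14 single-colour Affymetrix arrays, made with RMA per the submitters' processing notes. The RMA version, and whether both experiments were processed together, are not given in the sources used here. Per the labels, total RNA was amplified and labelled with biotin. From the deposited intensities log2 values were taken with no offset. Of 22690 probe sets, 64 controls, 691 with several genes and 1555 with no gene in the array annotation were left out. Changes were tested with limma 3.58.1 (lmFit and eBayes, R 4.3.3), two-sided, each knockout against its own wildtype. Benjamini-Hochberg adjustment ran over all 20380 probe sets, with calls at an adjusted p under 0.05. Errors of changes are moderated SEs. Array numbers limit the precision of each value, and no detection calls were used, so dim probe sets were kept.

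The members, gene lists, alternatives and tests were chosen with earlier results of these data known. The text names all members, the called genes of each list (for lists without calls, the 2 brightest genes), the 5 genes most like the members and the targeted genes. On simulated data the tests recovered 54% (Snf2h), 8% (Brg1) and 13% (difference) of 100 probe sets changed by a log2 of 1, and 90%, 76% and 68% of those changed by 2. False calls numbered 12, 0 and 6. The simulated noise was independent between arrays, with the same SD in every group for a probe set. It held no near-identical pair and no outlying array, so these shares may differ on the real arrays. Alternatives were other normalisations, a filter on dim probe sets, other treatment of several probe sets per gene, other eBayes settings, weights for the arrays, a block on the replicate number, 1 fit over all arrays, averaging near-identical arrays, a fold threshold, an offset of 50 and leaving out each array. Added after seeing the data were the counts of list calls and of probe sets with non-overlapping groups without each array.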

Additional observations from a re-analysis of the deposited data

Results flagged for a closer look

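The Trem2 probe set 1421792_s_at stood at 5.71 in Snf2h cKO replicate 1, while the other 3 arrays of that group lay at 5.32 to 5.38, a gap that Dixon's test flags. It was the only 1 of 28 groups of 4 arrays to be flagged, and chance flags about 1 in 20.

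Csf1r lay on opposite sides in the 2 experiments for its brighter 2 probe sets: every Snf2h cKO array was below the mean of its wildtype and every Brg1 cKO array above its own. The Brg1 change exceeded the Snf2h change by 1.24 in 1419872_at and by 0.91 in 1419873_s_at. Tested as an interaction with limma, neither difference was called (adjusted p = 0.286 and 0.435), and the third Csf1r probe set gave 0.06.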

How the results depend on the processing

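Over the alternatives run, 10 of 14 probe sets kept the sign of their change in the Snf2h experiment, 13 of 14 in the Brg1 experiment and 9 of 14 for the difference between them. The members called stayed at 0 in the Brg1 experiment and for the difference, while in the Snf2h experiment array weights gave 2 (C1qa and Lgmn) and leaving out 1 array gave 0 to 1, the 1 being Lgmn without wildtype replicate 1. Calls over all probe sets moved from 0 in the Snf2h experiment to 5 with the filter on dim probe sets (a mean log2 level of 6.87, which kept 8 of the 14), 2 with 1 probe set per gene, 2 with their mean, 7 with trended robust eBayes, 561 with array weights, 5 with 1 fit over all arrays and 3 with an offset of 50, and spanned 0 to 184 without single arrays, with 184 without wildtype replicate 1 and 77 without wildtype replicate 4. In the Brg1 experiment they moved from 127 to 15 with the filter, 280 with 1 fit over all arrays and 16 with the offset, and spanned 25 (without wildtype replicate 1) to 199 (without Brg1 cKO replicate 2). With the replicate number as a block there were 0 and 50 calls and 0 members; same-numbered arrays did not deviate together (correlations of −0.27 to 0.10 and −0.01 to 0.09), so the numbers give no pairing. With the near-identical arrays averaged C1qb 1434366_x_at turned to −0.13 in the Snf2h experiment, and the difference for C1qb 1417063_at to 0.037. With array weights the difference turned to −0.013 for C1qb 1434366_x_at, −0.10 for C1qb 1437726_x_at and −0.11 for Csf1r 1423593_a_at, and with the mean of a gene's probe sets to 0.12 for Trem2 1421792_s_at. Without single arrays the Snf2h change turned sign within −0.19 to 0.24 for C1qb 1434366_x_at, −0.030 to 0.38 for C1qb 1437726_x_at, −0.018 to 0.36 for Csf1r 1423593_a_at and −0.49 to 0.0060 for Trem2 1421226_at. The Brg1 change of Trem2 1421226_at spanned −0.0032 to 0.16. The difference spanned −0.46 to 0.043 for C1qb 1417063_at, −0.063 to 0.54 for C1qb 1437726_x_at and −0.10 to 0.28 for Csf1r 1423593_a_at. The cause of these moves was not tested. With 3 or 4 arrays a group and no detection calls, changes near a log2 of 1 in dim probe sets are at the limit of what these arrays can show.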
